A study of Arabidopsis thaliana with 9 samples.

Results

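The loci described here are protein-coding genes that gave a signal on Affymetrix ATH1 arrays. They lie in windows taken as the pericentromeric parts of the 5 chromosomes of Arabidopsis thaliana. They were chosen by locus number, from AT1G35000 to AT1G45000, AT2G05000 to AT2G15000, AT3G30000 to AT3G45000, AT4G03000 to AT4G09000 and AT5G28000 to AT5G38000, among the probe sets assigned to exactly 1 protein-coding locus. A probe set counted as giving a signal when it lay above the 40th percentile of its array on at least 3 of the 9 arrays. The gene QQS and the 27 probe sets for copies of the mitochondrial genome on chromosome 2 were left out. Of 661 probe sets in these windows, which cover 653 loci, 244 probe sets of 243 loci met the signal condition and 417 did not. The 244 made up 1.72% of the 14199 probe sets tested. The rule itself used no difference between lines, so the comparisons between lines were tested. It was set with earlier results of these data known, and a locus could meet the signal condition through a single line.

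Pericentromeres flank the centromeres of a chromosome. In Arabidopsis they hold many transposons and pseudogenes, and are packed into heterochromatin that carries DNA methylation and repressive histone methylation, which keep the transposons silent. Protein-coding genes are sparse there, and those that are transcribed lie as islands among the silent repeats. Mutants that lose this silencing are known for transcripts of transposons from these regions, and the genes between them are a place to look for changes in transcription.

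The plants came from lines 348 and 409, both labelled T-DNA knock out mutants, and from the control line C2S1, which is wild type by its titles but carries the words knock out mutation as its genetic variation. The series title speaks of epigenetic mutants, but the labels name no disrupted gene, no insertion site and no ecotype, so the targeted genes could not be examined. All plants were grown for 17 days at 21 C under 16 h of light and 8 h of dark, at 25 seeds per plate, and total RNA of whole plants at growth stage 1.04 was hybridised on 3 arrays per line. Since the labels do not say whether the samples of a line were grown apart, the spread behind each p-value may be technical. Whole plants also mean that fewer cells of a type and less RNA per cell cannot be told apart. A leaf marker and 2 root markers gave signals, as whole plants should show. The leaf list of 5 genes had 1 probe set on the array with 1 gene, which was tested. The root list of 5 genes had 3, of which 2 were tested, PYK10 and AT5G17820. AT5G17820 had 88.0 ± 10.8 signal units in line 348, 72.2 ± 29.6 in line 409 and 51.6 ± 15.1 in the control (SD, n = 3 arrays each). RCA, the leaf activase of the carbon-fixing enzyme, had 5748 ± 540 signal units in line 348, 5896 ± 284 in line 409 and 5322 ± 237 in the control, and PYK10, a root beta-glucosidase, had 3149 ± 229 in line 348, 3184 ± 732 in line 409 and 3213 ± 237 in the control (SD, n = 3 arrays each).

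The loci of the pericentromeric windows passed the signal condition less often than the other loci of the array. In the windows 36.9% of the protein-coding probe sets passed (244 of 661), against 62.1% in the rest of the 5 chromosomes (7255 of 11685). A further 8730 of the 22746 probe sets have no gene in the annotation used here, so both counts may lack loci. The share was 39.5% in the chromosome 1 window (45 of 114), against 60.7% in the rest of chromosome 1. It was 31.9% (36 of 113) on chromosome 2, against 60.1% in its rest, and 31.4% (43 of 137) on chromosome 3, against 62.8%. Chromosome 4 had 41.4% (58 of 140) in the window, against 63.2% outside it, and chromosome 5 had 39.5% (62 of 157), against 63.8%. All 5 windows thus lay below the rest of their own chromosome, as a description of these arrays, without a test, since the signal condition also chose the members. Beside these coding loci, 651 of the 1340 window probe sets with exactly 1 gene (48.6%) were assigned to pseudogenes, 18 of which are annotated as transcribed, whereas outside the windows 342 of 12027 (2.84%) were assigned to a gene that is not protein coding.

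**Figure D1:**
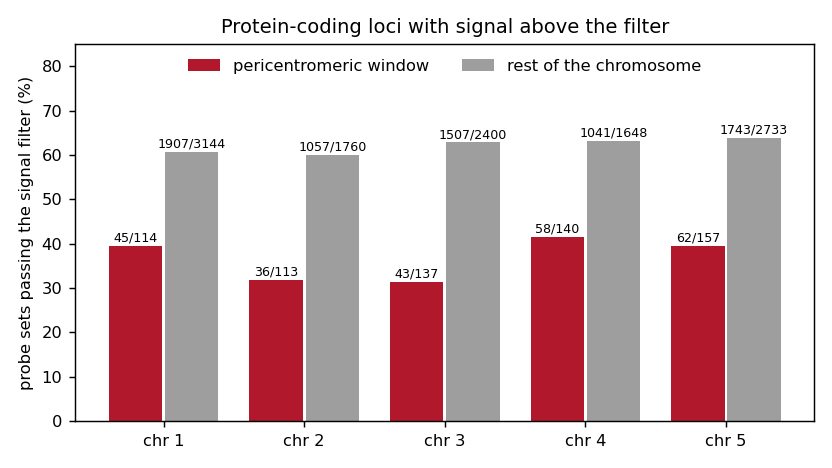
Share of probe sets of protein-coding loci that passed the signal condition (y axis, percent), for the pericentromeric window and for the rest of each chromosome (x axis), with the counts above the bars. Every window bar, between 31.4% and 41.4%, is lower than the bar of the rest of its chromosome, between 60.1% and 63.8%.

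The number of window probe sets above the threshold did not separate the lines. It was 239, 237 and 234 on the arrays of line 348, 232, 238 and 230 on those of line 409, and 242, 232 and 232 on those of the control. The ranges overlap, with means of 237 ± 2.52 in line 348, 233 ± 4.16 in line 409 and 235 ± 5.77 in the control (SD, n = 3 arrays each). The array's 40th percentile itself lay between 20.6 and 23.9 signal units. Of the 244 members, 209 were above it on all 9 arrays and 3 on exactly 3 arrays.

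Members near the threshold were faint on every array. Just inside were AT1G36070, with a lowest, median and highest signal over the 9 arrays of 14.9, 21.0 and 25.1, AT3G30380 with 16.6, 20.9 and 32.3, and AT5G37670 with 16.1, 20.9 and 27.7. Just outside were AT4G03600 with 5.68, 18.3 and 23.8, AT1G44780 with 2.09, 19.1 and 22.5, and AT4G08780 with 13.4, 19.3 and 23.5. Inside and outside the threshold these signals overlapped.

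Among those that passed, signals ran from 19.3 to 2964 units as means over the 9 arrays, with a median of 87.5, against 79.5 for the other protein-coding probe sets tested. A signal depends on the probes as well as on the transcript, so signals of different probe sets do not rank transcripts. The highest signals came from ATPC1, the gamma subunit of the chloroplast ATP synthase, with 3266, 3060 and 3011 in line 348, 3205, 3071 and 2842 in line 409, and 2835, 2842 and 2549 in the control. ATHM2, a chloroplast thioredoxin of the m type, and ty2, a chloroplast thioredoxin of the y type, were also in the highest-signal part, as was GME, the epimerase of GDP-mannose that feeds ascorbate synthesis. AT2G10940, AT5G35530 and AT2G05540, which the tables give no name, were also among the brightest members, with means of 2217, 2165 and 1242. Genes of photosynthesis and redox metabolism were thus among the loci with signal in all 3 lines.

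Line 348 was compared with the control to see which of these loci differ in that mutant. No member passed the test. The mutant's redox and respiration genes NDB2 and MSRB3 had higher signals than the control on every array, and so did the stromal ascorbate peroxidase SAPX and the nucleolar WD40 protein YAO, while AT5G37710, AT3G43240 and AT4G05070 had lower ones. None of these differences reached an adjusted p under 0.05 in limma over all 14199 probe sets, of which 3 (0.0211%) did. The lowest adjusted p of a member was 0.465. At an unadjusted p under 0.05, 6 of 244 members were higher in line 348 and 8 were lower, which is 2.46% and 3.28%, beside 2.61% and 3.03% of all probe sets tested. The 3 and 3 arrays did not overlap for 19 members that were higher and 20 that were lower, or 7.79% and 8.20%, beside 6.06% and 7.13% of all probe sets. These shares are near the background. The count of 14 became 27 with array weights (11.1%, beside 10.0% of all probe sets) and 22 when only the 6 arrays compared were fitted (9.02%, beside 7.47%). The median log2 difference of the members was -0.006, against -0.009 for all probe sets tested, and single members ranged from -0.63 to 0.65.

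The largest negative difference of line 348 belonged to AT5G37710. Its signals were 54.3, 55.5 and 37.4 in line 348 and 67.4, 92.4 and 75.7 in the control, so that every array of line 348 lay below every control array. The log2 difference was -0.63 ± 0.17 (SE), with a limma p of 0.00183 and an adjusted p of 0.465. In line 409 the same probe set had 58.9, 60.4 and 58.8, also below the control, with a log2 difference of -0.36. An adjoining locus, AT5G37690, had the largest positive difference, with 80.9, 68.1 and 52.8 in line 348 and 41.2, 50.5 and 31.4 in the control. Its groups do not overlap, the log2 difference was 0.65 ± 0.23 (SE), and the adjusted p was 0.761.

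NDB2 encodes an external NAD(P)H dehydrogenase of plant mitochondria, which passes electrons to ubiquinone without pumping protons. It had 121, 104 and 115 signal units in line 348 and 71.4, 76.9 and 94.8 in the control. The groups do not overlap, and the log2 difference was 0.47 ± 0.14 (SE) with an adjusted p of 0.701. MSRB3, a methionine sulfoxide reductase that repairs oxidised methionine, had 58.0, 62.0 and 41.3 in line 348 and 38.5, 33.2 and 32.5 in the control, without overlap. Its log2 difference was 0.55 ± 0.19 (SE), with an adjusted p of 0.751. SAPX, which removes hydrogen peroxide in the chloroplast stroma, had 325, 333 and 374 in line 348 and 248, 276 and 284 in the control. The lowest array of line 348 exceeded the highest control array, with a log2 difference of 0.35 ± 0.13 (SE) and an adjusted p of 0.784. YAO, a nucleolar protein needed for early plant development, had 104, 99.6 and 88.6 in line 348 and 76.1, 80.2 and 68.0 in the control, again without overlap, and an adjusted p of 0.816. AT4G03120 was higher on all arrays of line 348 too, with 131, 81.9 and 102, against 67.1, 71.8 and 76.9.

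Lower signals in line 348 without overlap were found, by the lowest unadjusted p after AT5G37710, at AT3G43240, AT4G05070, AT3G42950, AT2G05790 and AT5G35170. AT3G43240 had 66.5, 90.1 and 84.2 in line 348 and 103, 103 and 101 in the control, a log2 difference of -0.34 ± 0.14 (SE), which was -0.22 without line 348 replicate 1. AT4G05070 had 637, 579 and 506, against 695, 661 and 767 in the control, a log2 difference of -0.30 ± 0.12 (SE). Both had an adjusted p of 0.832, and in both every array of line 348 lay below every control array. The log2 difference of AT2G05790 was -0.32, and -0.16 without line 348 replicate 3.

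**Figure D2:**
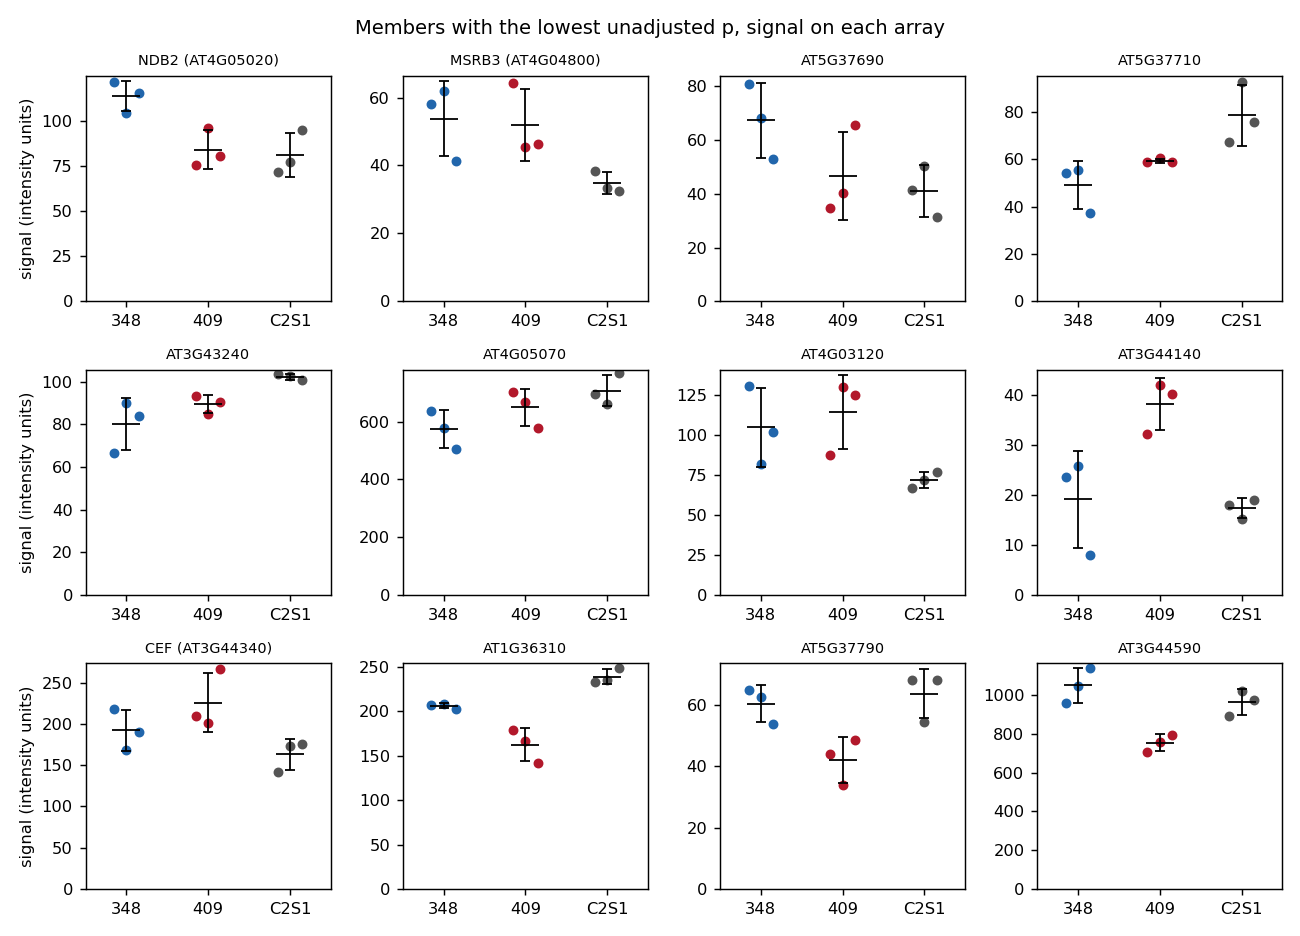
Signal on each array (points, intensity units) for 12 members among those with the lowest unadjusted p in a comparison, in line 348, line 409 and the control C2S1 (x axis), with the mean and SD of 3 arrays as the horizontal and vertical lines. AT1G36310 shows line 409 at 142 to 179, below the control at 233 to 249, and NDB2 shows line 348 at 104 to 121, above the control at 71.4 to 94.8.

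Line 409 was compared with the same 3 control arrays, so its differences share the control values with those of line 348. No member passed the test here either, but more had low unadjusted p-values, as was the case for the probe sets of the whole array. Signals were lower in line 409 at AT1G36310, AT5G37790, AT3G44590, AT4G08310 and GME, and higher at AT4G03120, AT3G44140, CEF, SAH7 and AT5G35160. Of these, only AT1G36310 and AT5G35160 lie more than 1000 locus numbers inside their windows. Across all probe sets tested 6 were called (0.0423%), and the lowest adjusted p of a member was 0.123. At an unadjusted p under 0.05, 13 of 244 members (5.33%) were higher and 17 (6.97%) were lower, beside 5.38% and 6.78% of all probe sets. Arrays did not overlap for 14 members that were higher (5.74%) and 29 that were lower (11.9%), beside 7.79% and 9.87% of all probe sets. The median log2 difference of the members was -0.009, against -0.012 for all probe sets, and the range was from -0.62 to 0.94. Narrowing the windows by 1000 locus numbers at both ends left 127 members. Of these, 9 (7.09%) had an unadjusted p under 0.05, beside 12.2% of all probe sets.

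AT1G36310 came nearest to the threshold. It had 179, 167 and 142 signal units in line 409 and 233, 236 and 249 in the control, a gap wider than the spread of either line. The log2 difference was -0.55 ± 0.12 (SE), with a limma p of 0.000303 and an adjusted p of 0.123, and its mean signal was 163 ± 18.9 in line 409 and 239 ± 8.50 in the control (SD, n = 3 arrays each). Line 348 lay between them at 208, 208 and 203. The next locus on the chromosome, AT1G36320, had 116, 159 and 144 in line 409 and 258, 151 and 259 in the control. Its log2 difference was -0.62 ± 0.24 (SE), with an adjusted p of 0.316, and 1 control array overlapped line 409.

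AT3G44140 was the dim member with the largest difference. It had 32.2, 42.0 and 40.2 signal units in line 409 and 18.0, 15.2 and 19.0 in the control, with means of 38.1 ± 5.18 in line 409 and 17.4 ± 1.96 in the control (SD, n = 3 arrays each). It was above the signal threshold on all 3 arrays of line 409, 2 of line 348 and none of the control. AT3G44140 therefore met the signal condition only through line 409, where it is high, and its difference is given as a description. The log2 difference was 0.94 ± 0.30 (SE), on the scale of log2 of the signal plus 4.95, which understates differences of dim probe sets, with an adjusted p of 0.245, and it lay between 0.61 and 1.13 under other settings and between 0.87 and 1.05 with single arrays left out. Against line 348 the log2 difference was 0.93, and 0.54 without line 348 replicate 3. It was the only member that was above the threshold on every array of one line and on no array of the line it was compared with in the contrasts against the control. Its line 348 signals were 23.5, 25.8 and 8.07 and ran from below to above those of the control.

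CEF, a relative of the Sec24 coat proteins of vesicles that leave the endoplasmic reticulum, had 209, 201 and 267 in line 409 and 141, 173 and 175 in the control. The groups do not overlap, and the log2 difference was 0.45 ± 0.14 (SE) with an adjusted p of 0.245. GME had 1101, 1062 and 928 in line 409 and 1438, 1335 and 1222 in the control, also without overlap, and a log2 difference of -0.37 ± 0.13 (SE) with an adjusted p of 0.268. AT3G44590 had 708, 759 and 795 in line 409 and 893, 1022 and 977 in the control, a log2 difference of -0.35 ± 0.11 (SE) with an adjusted p of 0.238. AT5G37790 had 44.0, 33.9 and 48.5 in line 409, against 68.2, 54.4 and 68.2, with an adjusted p of 0.231. For these loci every array of line 409 lay on the same side of every control array.

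MSRB3, AT4G03120, AT5G35170 and AT5G37710 had an unadjusted p under 0.05 in both lines against the shared control. MSRB3 had 64.2, 45.5 and 46.3 in line 409, with a log2 difference of 0.51 in line 409 and 0.55 in line 348. AT4G03120 had 87.8, 130 and 125 in line 409, with log2 differences of 0.62 in line 409 and 0.49 in line 348. AT5G35170 had 259, 217 and 184 in line 409, 222, 251 and 224 in line 348, and 308, 294 and 262 in the control. At these 4 probe sets the arrays of both lines lay on the same side of the control arrays, and the shared control arrays enter both differences.

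Line 409 was set against line 348 directly, which leaves the control arrays out of the difference. No member passed, and 2 of all probe sets did (0.0141%). Line 409 had lower signals than line 348 at AT3G44590, AT2G07170, AT1G43690, AT5G37790, NDB2 and AT1G36310, and higher ones at AT3G44140, AT5G35160, AT3G33530 and AT1G35420. At an unadjusted p under 0.05, 6 members (2.46%) were higher in line 409 and 10 (4.10%) were lower, beside 3.47% and 4.01% of all probe sets. Arrays did not overlap for 12 higher (4.92%) and 13 lower members (5.33%), beside 5.47% and 5.67%. The count of 16 at an unadjusted p under 0.05 became 26 without line 409 replicate 3 (10.7%, beside 9.61% of all probe sets). It became 11 without line 348 replicate 2 (4.51%, beside 5.32%).

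The lowest adjusted p of this comparison among members, 0.333, was that of AT3G44590. It had 708, 759 and 795 in line 409 and 963, 1047 and 1143 in line 348, without overlap, and a log2 difference of -0.47 ± 0.11 (SE). NDB2 had 75.4, 96.1 and 80.3 in line 409, below the 121, 104 and 115 of line 348 and within the range of the control but for 1 array, with a log2 difference of -0.42 ± 0.14 (SE) and an adjusted p of 0.596. AT2G07170 had 46.9, 29.0 and 49.3 in line 409 and 63.5, 56.9 and 68.0 in line 348, a log2 difference of -0.56 ± 0.19 (SE) with an adjusted p of 0.596, which was -0.35 without line 409 replicate 2, the array at 29.0. The dim AT5G35400 had 13.2, 18.1 and 21.5 in line 409, below the signal threshold on each array. In line 348 it had 24.3, 27.7 and 21.1, above the threshold on each. It could thus meet the signal condition through line 348, where it is high, although the control was not below the threshold on all its arrays.

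**Figure D3:**
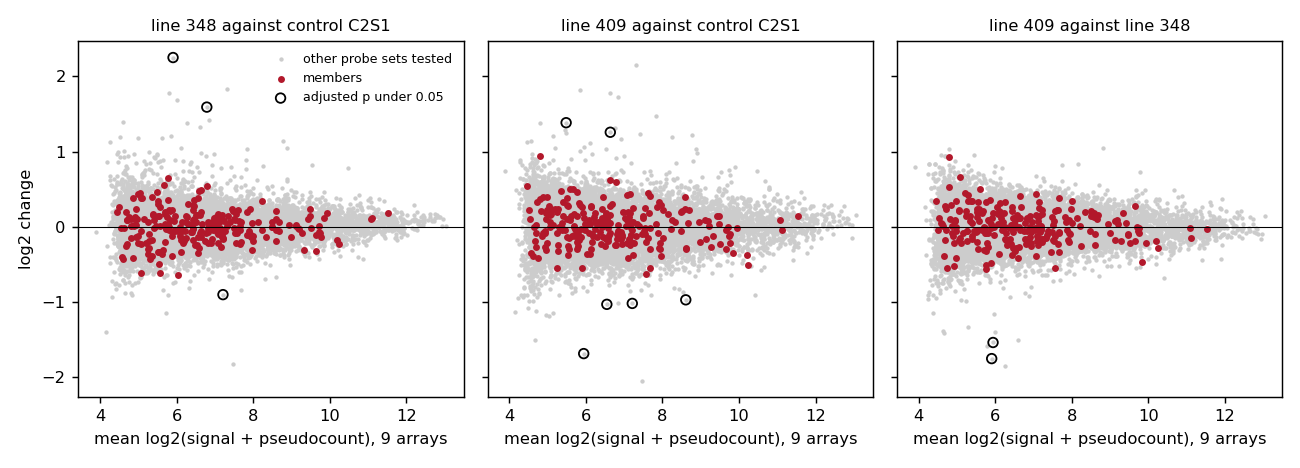
Log2 difference (y axis) against the mean log2 of the signal plus the pseudocount over 9 arrays (x axis) for members (red) and the other probe sets tested (grey) in the 3 comparisons, with called probe sets circled. No member is circled, and the members stay between -0.63 and 0.94 while the circled probe sets lie outside them in grey.

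How precisely a member was measured bears on these counts. On the scale of log2 of the signal plus 4.95, no member's difference passed 2-fold in a comparison, although the mean signals of AT3G44140, 38.1 in line 409 and 17.4 in the control, differ by more. Over all probe sets tested, 0.155% and 0.254% passed 2-fold in lines 348 and 409 against the control, and 0.0916% between the lines. The 95% confidence interval of the log2 difference, from the limma fit and not adjusted for the number of members, lay inside a 2-fold difference in either direction for 235 of 244 members in line 348 against the control. The number was 234 in line 409 against the control and 233 in line 409 against line 348. These are 96.3%, 95.9% and 95.5%, beside 96.9%, 95.6% and 96.6% of all probe sets tested, so they are near the background. The median SE of a member's log2 difference was 0.158, against 0.159 for all probe sets. For the remaining members a 2-fold difference lay inside the interval, and a p that misses the threshold does not show that a member was at the same level in both lines.

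By chromosome, the members were compared with the protein-coding probe sets in the rest of the same chromosome. In line 348 35 of the 58 chromosome 4 members lay above 0, with a median log2 difference of 0.060, against -0.014 in the rest of chromosome 4, and with 5 higher and 2 lower at an unadjusted p under 0.05 (12.1%, against 5.28%). NDB2, MSRB3, SAPX, YAO and AT4G03120 are the 5 higher ones. Without overlap, 8 of the 58 lay above the control in line 348 (13.8%, against 5.28%), and on chromosome 3 8 of 43 lay below it (18.6%, against 6.50%). The chromosome 4 median was 0.007 without control replicate 2 and 0.104 without control replicate 1, and the count of 7 became 4 without line 348 replicate 3 and 13 with array weights. Over all probe sets tested the share was 5.64%, and it was 5.00% without line 348 replicate 3 and 10.0% with array weights. On chromosome 1 none of the 45 members had an unadjusted p under 0.05 in line 348, against 5.09% in the rest of that chromosome, and this count was between 0 and 2 with single arrays left out.

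In line 409 25 of the 62 chromosome 5 members lay above 0, with a median log2 difference of -0.040, against -0.005 in the rest of chromosome 5. There 3 were higher and 7 lower at an unadjusted p under 0.05 (16.1%, against 13.0%), and 13 of 62 lay below the control without overlap (21.0%, against 10.6%), among them GME, AT5G37790, AT5G35170, AT5G28750 and AT5G37710. The count of 10 became 5 without line 409 replicate 3, and without control replicate 1 it became 6 and the median 0.009. The share of all probe sets tested was 13.3% without line 409 replicate 3 and 7.94% without control replicate 1. The chromosome 4 members had a median of 0.048 in line 409, against -0.010 in the rest of chromosome 4. Among them 6 were higher and 3 lower at an unadjusted p under 0.05 (15.5%, against 10.2%), beside 12.2% of all probe sets tested. This count of 9 fell to 4 when control replicate 2 was dropped, and to 6 when line 409 replicate 2 was. With these arrays left out, the share of all probe sets was 7.84% and 9.75%. On chromosome 3 the members' median in line 409 against line 348 was 0.085, against 0.001 in the rest, and it was 0.025 without line 409 replicate 1. None of these medians was tested.

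**Figure D4:**
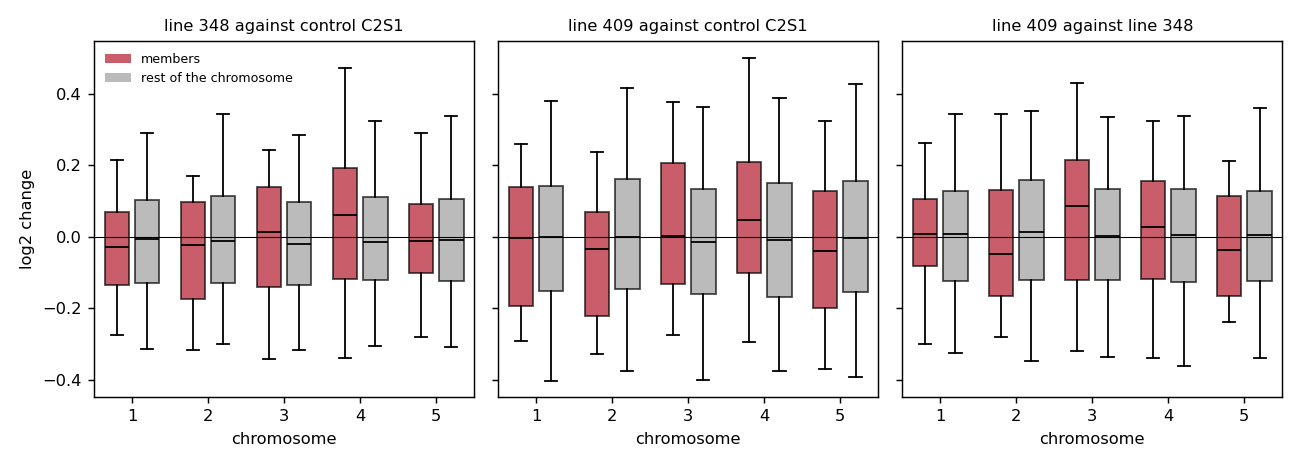
Log2 difference (y axis) of the members (red) and of the other protein-coding probe sets of the same chromosome (grey), by chromosome (x axis), in the 3 comparisons. Boxes span the quartiles with the median as a line, and whiskers reach the 5th and 95th percentiles. The chromosome 4 box of line 348 has its median at 0.060 and the chromosome 5 box of line 409 at -0.040, and all boxes overlap 0.

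Neighbouring members were set side by side to see whether adjacent loci moved one way. Of 52 pairs of members that are next to each other in the RefSeq gene order with no gene between them, the log2 differences had the same sign in 25 (48.1%) for line 348 against the control, beside 49.9% of 2341 such pairs over all protein-coding loci tested. The number was 20 (38.5%, beside 48.7%) for line 409 against the control and 25 (48.1%, beside 53.5%) for line 409 against line 348. The pairs AT1G36310 with AT1G36320, AT3G44330 with CEF, and SAH7 with AT4G08690, chosen after their values were seen, had the same sign in line 409, with log2 differences of -0.55 and -0.62, 0.33 and 0.45, and 0.40 and 0.47. AT5G35160 and AT5G35170, which also adjoin each other, had opposite ones, 0.40 and -0.39.

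By signal level, the members were split at the cuts that divide all probe sets tested into 3 equal parts by their mean log2 signal. The low part held 86 members with a median signal of 35.8, the middle part 85 with 92.9 and the high part 73 with 296. The spread between arrays of the same line shrank with the signal: the median SD on the log2 scale was 0.256 for low, 0.177 for middle and 0.153 for high members, against 0.258, 0.183 and 0.154 for the other probe sets in the same parts. At each level the members' spread was within 0.01 of that of the other probe sets. The widest spread within lines was that of AT3G30160, AT1G35710 and Prx37, a cell wall peroxidase whose signals were 142, 110 and 107 in line 348, 61.2, 152 and 195 in line 409, and 59.9, 46.9 and 177 in the control.

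In line 409 against the control, the largest share of low unadjusted p-values among members was at high signal. There 17 of 73 high members had an unadjusted p under 0.05 (23.3%, against 15.3% of the other high probe sets), 5 of them higher and 12 lower. In the middle part the count was 5 of 85 (5.88%, against 12.6%, and 9 with array weights), and in the low part 8 of 86 (9.30%, against 8.61%, and 5 without control replicate 2). Among the high members with lower signals were GME, VPS2.1, a subunit of the complex that sorts membrane cargo at endosomes, AT1G36310, AT3G44590 and AT5G28750, and among the higher ones CEF, SAH7 and AT5G35160. The count of 17 became 8 without control replicate 1. Over all probe sets tested, the share in this comparison went from 12.2% to 7.94% without control replicate 1. It was 7.84% without control replicate 2 and 16.2% with array weights. In line 348 the counts were 5 of 86, 5 of 85 and 4 of 73 from low to high signal, or 5.81%, 5.88% and 5.48%, against 4.37%, 6.15% and 6.39%. These small counts rest on single arrays: leaving out replicate 2 of line 348 gave 3 low members. The middle count became 2 with replicate 1 of line 348 left out, and 9 when replicate 3 of line 409 was. The high count became 0 when replicate 3 of line 348 was left out, and 2 when control replicate 1 was. The share of all probe sets tested in line 348 was 5.64%, and between 3.94% and 6.73% with single arrays left out.

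**Figure D5:**
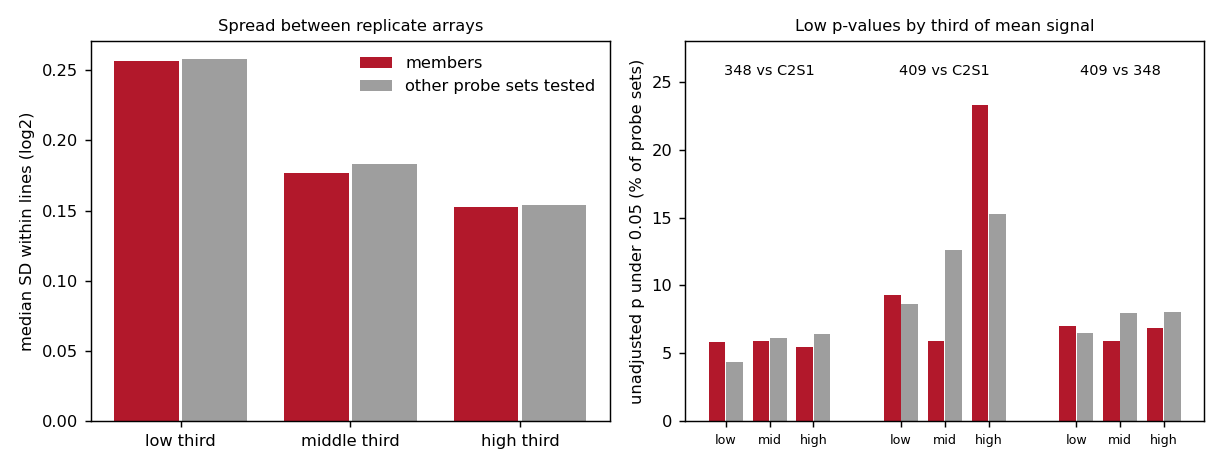
Left, median SD between arrays of the same line on the log2 scale (y axis) for members (red) and other probe sets tested (grey) by low, middle and high mean signal. Right, the percentage with an unadjusted p under 0.05 (y axis) in the same parts for the 3 comparisons. The high members of line 409 against the control stand at 23.3%, beside 15.3% of the other probe sets.

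A total of 39 members carry a gene symbol in the RefSeq table, and they were grouped by role after their values had been seen. None was called in any comparison. Of 7 genes of redox repair and respiration, which are the methionine sulfoxide reductases MSRB3, MSRB5 and MSRB6, the glutathione transferase GSTU27, the peroxidase Prx37, GME and NDB2, 2 were higher and 0 lower in line 348 at an unadjusted p under 0.05, with a median log2 difference of 0.24, beside 2.61% higher, 3.03% lower and a median of -0.009 over all probe sets tested. In line 409 1 was higher and 2 were lower, with a median of -0.08, beside 5.38% higher, 6.78% lower and a median of -0.012 over all probe sets. Since these groups were made after their values were seen, the counts are descriptions. The reductases did not go one way in line 409, where MSRB5 had 419, 328 and 317 signal units, against 447, 436 and 408 in the control. MSRB6 had 230, 168 and 94.5 in line 409, against 197, 215 and 106, a spread within lines that covers the difference.

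The 7 chloroplast genes were ATPC1, ATHM2, ty2, SAPX, hemf2 of the heme and chlorophyll pathway, CCB3, which helps assemble the cytochrome b6f complex, and the acetyl-CoA synthetase ACS. Their log2 differences ran from -0.12 to 0.35 in line 348, where SAPX alone had an unadjusted p under 0.05, and from -0.28 to 0.32 in line 409, where none had. Over all probe sets tested, 5.64% had such a p in line 348 and 12.2% in line 409. The 8 genes of protein folding, secretion and autophagy included BZIP60, a transcription factor of the unfolded protein response, the derlin DER2.2 and the lectin OS9 of protein degradation at the endoplasmic reticulum, the autophagy proteins ATG8B and ATG8D, the GTPase ARLA1A, CEF and VPS2.1. BZIP60 had 165, 152 and 187 signal units in line 348, 166, 144 and 154 in line 409 and 141, 155 and 158 in the control, so that all groups overlapped. In line 409 CEF was higher and VPS2.1 lower at an unadjusted p under 0.05, and in line 348 none of the 8 was. VPS2.1 had 197, 206 and 237 in line 409, against 248, 250 and 290 in the control, without overlap.

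Members grouped under the nucleus were SEU, a co-regulator of flower development genes, DAYSLEEPER, a protein derived from a transposase of the hAT family, CYP71, a cyclophilin that acts on chromatin, YAO, PCN, MAK10 and the splicing factor ATSRL1. Where in the cell each of these proteins is found, MAK10 among them, was not checked. DAYSLEEPER had 123, 108 and 125 in line 348, 113, 126 and 101 in line 409, and 119, 124 and 122 in the control, and its log2 differences were -0.04 and -0.11 in the 2 lines. CYP71 had 107, 81.8 and 106 in line 348, 78.7, 69.3 and 84.3 in line 409, and 83.1, 92.4 and 84.6 in the control. Its difference between line 409 and line 348 was -0.32 ± 0.14 (SE), an unadjusted p of 0.0383 with an adjusted p of 0.654, and the arrays overlapped. YAO alone of the 7 had an unadjusted p under 0.05 against the control, in line 348. Of all probe sets tested, 5.64% had such a p in line 348 and 12.2% in line 409. In line 409 5 of the 7 were below 0, with a median of -0.11, where 47.8% of all probe sets tested were above 0 and their median was -0.012.

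The 10 genes of growth, cell wall and metabolism included EXO, which promotes growth in response to brassinosteroids, the xyloglucan synthase CSLC12, the glutamate receptor channel GLR3.3, the sterol glucosyltransferase UGT80B1, allantoinase ALN, ALDH6B2, the proline iminopeptidase PIP, the beta-glucosidase BGLU42, AOP1 and SAH7. In line 409 9 of the 10 were above 0, with a median log2 difference of 0.12 and a range of -0.07 to 0.40. Over all probe sets tested 47.8% were above 0 and the median was -0.012. SAH7 alone had an unadjusted p under 0.05 there, beside 12.2% of all probe sets. It had 397, 403 and 518 in line 409 and 304, 366 and 323 in the control, without overlap, and an adjusted p of 0.262. In line 348 5 of the 10 were above 0. AOP1, a dioxygenase related to the glucosinolate enzymes, had 30.0, 23.8 and 10.8 in line 348, against 37.1, 34.6 and 28.6 in the control, a log2 difference of -0.61 ± 0.26 (SE) with an adjusted p of 0.865. The array of line 348 at 10.8 lies apart from the other 2 arrays of that line.

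Lists of genes by function were also written from locus numbers, with earlier results of these data known, and none of their members was called. Few list loci had a probe set with 1 gene on the array. There were 4 for photosynthesis and chloroplast, 3 for ribosome and ubiquitin, and 3 for defence and stress. Signalling, nitrogen and sulfur metabolism, and replication and chromatin had 1 each. All of these were tested, except that defence and stress had 2 tested. Of 16 photosynthesis and chloroplast loci 4 were tested members, ATPC1, ATHM2, ty2 and SAPX, with a median log2 difference of 0.19 in line 348 and 0.05 in line 409. Of 10 ribosome and ubiquitin loci 3 were, with medians of 0.12 in line 348 and 0.03 in line 409, and of 13 defence and stress loci 2 were, NDB2 and BZIP60, with medians of 0.31 and 0.04. Signalling, with 1 of 15, nitrogen and sulfur metabolism, with 1 of 14, and replication and chromatin, with 1 of 10, rested on EXO, ALN and SEU alone, whose log2 differences were 0.03, -0.02 and -0.16 in line 348 and 0.06, 0.13 and -0.17 in line 409.

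Window loci that did not pass the signal condition were fitted too, without the condition. None of the 417 was called. In line 409 17 were higher and 2 lower than the control at an unadjusted p under 0.05 (4.08% and 0.48%), beside 5.54% and 2.02% of the 8130 other probe sets that did not pass, and in line 348 7 were higher and 5 lower (1.68% and 1.20%), beside 2.67% and 1.73%. In line 409 against line 348 14 were higher and 10 lower (3.36% and 2.40%), beside 4.81% and 2.32%. Their medians of 0.018 in line 348 and 0.104 in line 409 stood beside 0.027 and 0.097 for the other dim probe sets.

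Genes of DNA methylation, histones and silencing were read beside the members, from a list of 29 genes of which 6 probe sets were on the array with 1 gene and 5, of 4 genes, were tested. These were the DNA glycosylase DME, with 2 probe sets, the centromeric histone HTR12, AT1G06760 and AT2G30620. None was called in a comparison. AT2G30620 had 440, 463 and 524 signal units in line 409 and 639, 557 and 635 in the control, without overlap, a log2 difference of -0.36 ± 0.15 (SE) with an unadjusted p of 0.0343 and an adjusted p of 0.370. The other 4 probe sets had an unadjusted p above 0.05 in every comparison. Of the 2 root marker probe sets tested, AT5G17820 had 99.9, 78.9 and 85.1 in line 348 and 35.9, 65.9 and 53.0 in the control, without overlap, with an adjusted p of 0.778, and PYK10 had a log2 difference of -0.03. The part of the makeup of the plants in the members' differences was not tested. The ratio of the 3 prime to the 5 prime GAPDH control probe sets, a sign of RNA quality, lay between 1.58 and 1.70 in line 348, between 1.63 and 1.87 in line 409, and between 1.79 and 1.97 in the control. Line 348 thus lay below the control on every array, and the part of this ratio in the results was not tested.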

How the data were processed

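Each sample was 1 ATH1 array of biotin-labelled total RNA. The authors deposited linear signal intensities, which the submitters' processing notes credit to MAS5 and GCOS (version not given in the sources used here). Their 2% trimmed mean was 100.01 on each array, a scaling that was kept, and detection calls were not used. Samples were grouped by line, and no batch is labelled. Line 348 has the title numbers 1, 1 and 3, so its replicates are numbered in sample order.

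Control probe sets (64) were left out. Genes came from the given probe and RefSeq tables: 13513 of 22746 probe sets had 1 gene, 503 several and 8730 none. RefSeq served for names and gene order. A pseudocount of 4.95, the 20th percentile as a median over arrays, was added before taking log2. The 14199 probe sets above the 40th percentile on at least 3 arrays were fitted with limma 3.58.1 in R 4.3.3, in 1 model of the 9 arrays with an intensity trend and 6 residual degrees of freedom. Benjamini-Hochberg adjustment ran over all of them, and called means an adjusted p under 0.05. The number of arrays limits the precision. On data simulated for line 409 against the control over 14199 probe sets, the fit called 63 of 87 probe sets changed by 1 log2 unit and 109 of 113 changed by 2, with 9 false calls. These changes were larger than any member's difference, so the simulation does not show how often differences of the members' size would be called. Tables were made with Python 3.11.15, pandas 2.3.3 and numpy 2.4.6.

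The members and the gene lists were chosen with earlier results of these data known. Named are, per comparison and direction, members among the 8 with the lowest p whose arrays do not overlap, the 2 brightest of each window, up to 4 brightest of each list, the 3 most variable, and 3 on each side of the signal threshold. Others were named after their values were seen. Alternatives were quantile normalization, median centring, other pseudocounts and filters, other probe set choices and variance models, fewer arrays, each array left out, a replicate block, and narrower windows.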

Additional observations from a re-analysis of the deposited data

How the results depend on the processing

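Under none of the 24 alternatives was a member called in a comparison. The lowest adjusted p of a member over them was 0.194 in line 348 against the control, 0.0571 in line 409 against the control, for AT1G36310 with array weights, and 0.276 in line 409 against line 348, and under other alternatives it was as high as 0.999, 0.425 and 0.942 in these comparisons. Without the filter on dim probe sets, which brings in all 661 window probe sets, the counts at an unadjusted p under 0.05 were 26 for line 348 against the control, 48 for line 409 against the control and 42 for line 409 against line 348, or 3.93%, 7.26% and 6.35%, beside 5.07%, 10.1% and 7.10% of all probe sets, and the medians were 0.0119, 0.0626 and 0.0531. With windows narrowed by 1000 locus numbers at both ends, which leaves 127 members, the counts were 7, 9 and 9, or 5.51%, 7.09% and 7.09%, beside 5.64%, 12.2% and 7.48% of all probe sets, and the median was -0.033 in line 409 against the control. For line 348 against the control the count was 27 with array weights and 22 with only the 6 arrays compared. These are 11.1% and 9.02%, beside 10.0% and 7.47% of all probe sets, and the cause was not tested. With each array left out in turn, the counts ranged from 11 to 19 for line 348 against the control, from 21 to 32 for line 409 against the control and from 11 to 26 for line 409 against line 348. The share of all probe sets tested moved too, from 3.94% to 6.73%, from 7.84% to 14.6% and from 5.05% to 9.61% in these comparisons. The members' medians ranged from -0.0256 to 0.0134, from -0.0365 to 0.0204 and from -0.0264 to 0.0198, so their sign depends on single arrays. None of the 48 differences of members named for a low p changed its sign. They were named among members whose arrays do not overlap, so leaving out an array could not change the sign.

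The replicate numbers of the titles as a block left the counts of called members at 0, and gave 18, 30 and 19 members at an unadjusted p under 0.05. These are 7.38%, 12.3% and 7.79%, beside 6.39%, 12.1% and 7.42% of all probe sets. Arrays with the same number correlated between -0.116 and 0.192 in their deviations from the line means. Arrays with different numbers were not set beside them, so these values do not show whether the samples are paired. The planned search of promoter letters was not run, as no promoter sequence was used here. The number of arrays, 3 per line, limits the precision.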
